A study of Mus musculus with 6 samples.

Results

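The genes described here are 122 genes of mouse small intestinal organoids whose transcripts fell to 0.5 of control or less at the higher of 2 doxycycline doses while standing within 10% of control at the lower dose. They were chosen by their measured levels. The level of a gene in a library was its expected count over the sum of all expected counts, times 1000000 (CPM). A member had a mean control level of at least 5 CPM, a ratio of the mean at 0.1 µg/ml to control between 0.9 and 1.1, and a ratio of the mean at 0.5 µg/ml to control of at most 0.5. Both libraries at 0.5 µg/ml also had to lie below all 4 others. The table holds 55416 genes, of which 10404 reached the control floor and 5547 of those lay inside the window at 0.1 µg/ml, so that the members made up 1.17% and 2.2% of these sets. The order of the libraries removed no gene that met both ratios. Since these values made the choice, the levels and fold changes of members are given as a description with no test.

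Small intestinal organoids are epithelial cultures grown in a gel from intestinal crypts. All of them came from mice of 4 to 8 weeks homozygous for Rosa26-rtTA (Tg/Tg) and also for Col1A1-TetO-OSKM (Tg/Tg), in which doxycycline lets the transactivator rtTA switch on Oct4 (Pou5f1), Sox2, Klf4 and Myc from a tetracycline operator at the Col1a1 locus. The control group received no doxycycline and carried both transgenes, so an effect of doxycycline itself cannot be told apart from that of the factors. Doxycycline at 0.1 or 0.5 µg/ml was present over 3 days in the other groups, and the medium was IntestiCult. Each group held 2 libraries of poly-A RNA, which the series calls biological replicates; no source used here says whether they came from separate animals, organoid lines or wells.

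Absorptive enterocytes, the main mature cell of the small intestine, take up sugars, lipids, peptides and vitamins through a brush border of microvilli. They also carry much of the gut's drug metabolism: cytochrome P450 enzymes and esterases modify foreign compounds, transferases couple them to glucuronic acid, sulfate or glutathione, and ATP-driven (ABC) transporters pump the products back into the lumen. Nuclear receptors that pair with RXRα, and the HNF4 factors, are known regulators of these programs. Many of the members have roles of this kind.

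The libraries held 45.3 to 72.5 times 1000000 expected counts, and 3 counts in a library equal 0.0414 to 0.0662 CPM. The 4 induced factors rose with dose, Pou5f1 for example from 0.248 and 0.145 CPM in control to 136 and 143 CPM at 0.1 µg/ml and 468 and 496 CPM at 0.5 µg/ml. The summed level of 10 epithelial markers rose from 7070 to 7130 CPM in control to 8320 to 8510 and 9870 to 9990 CPM at the doses. The markers did not all rise. At 0.5 µg/ml 6 were called higher and 4 lower (edgeR adjusted p under 0.05), beside 34.4% and 33.1% of all tested genes. At 0.1 µg/ml 5 were called higher and 2 lower, beside 20.8% and 13.8%. Markers of other cells were low in comparison: 13 fibroblast markers summed to 4.45 to 8.04 CPM over all libraries with Twist2 at 0 throughout. The 14 immune markers summed to 4.99 to 5.0, 7.11 to 7.43 and 14.4 to 14.9 CPM in control and at the rising doses, with Cd3g, Adgre1 and Nkg7 among those at 0. The 8 endothelial markers summed to 0.725 to 0.992, 2.22 to 2.45 and 4.63 to 5.03 CPM, with Cdh5, Emcn and Cldn5 at 0; their part in the members' levels was not tested. In bulk RNA, fewer cells of a type and less RNA per cell cannot be told apart.

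Together the members gave 9391 and 10053 CPM in the control libraries, 10077 and 9126 CPM at 0.1 µg/ml, and 3991 and 3900 CPM at 0.5 µg/ml. The libraries of the first 2 groups overlapped, and both libraries at 0.5 µg/ml lay far below them, as the rule fixes. The median ratio to control was 0.409 at 0.5 µg/ml, from 0.247 for Sult1c2 up to the limit, and 21 members stood under 0.333. The median ratio at 0.1 µg/ml was 0.953, against 0.986 for all genes inside the window. Of the members, 89 stood under control at 0.1 µg/ml and 33 at or over it, and 28 lay between 0.9 and 0.92. The control level ran from 5.45 to 886 CPM with a median of 31.1. By the rule the lowest of the 4 control and low-dose libraries of each member exceeded the highest at 0.5 µg/ml. It did so by 1.5 to 3.63 times, with a median of 2.11.

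**Figure D1:**
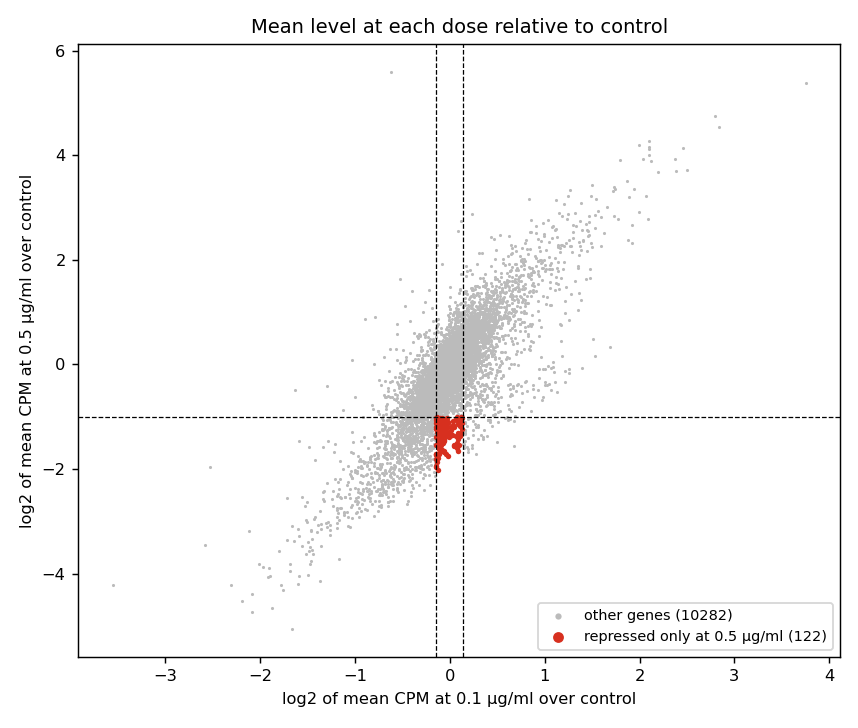
Each point is 1 of the 10404 genes of at least 5 CPM in control, placed by the log2 ratio of its mean level to control at 0.1 µg/ml (x axis) and at 0.5 µg/ml (y axis); both ratios share the control libraries. The 122 members (red) fill the box between the dashed limits of 0.9 and 1.1 on the x axis and under 0.5 on the y axis, and genes continue on both sides of it.

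Members were a minority of the genes that fell at the higher dose. Of the 10404 genes, 1060 (10.2%) stood at or under 0.5 of control at 0.5 µg/ml without overlap of libraries. Among these, 890 (84.0%) were already under 0.9 of control at 0.1 µg/ml, 122 (11.5%) are the members, and 48 (4.53%) were above 1.1. The mirrored rule, at least 2 times control at 0.5 µg/ml and within the same window at 0.1 µg/ml, was met by 25 genes. The limits cut through a continuous spread. Dynlt1a (0.4962) and Ugdh (0.4969) lay just inside the 0.5 limit, and Rasgrf2 (0.5007) and Prap1 (0.5023) just outside. At the lower edge of the window Tmem238l (0.9004) and B4galnt3 (0.9006) were inside, while Maob (0.8999) and Gm45062 (0.8996) were outside. At the upper edge Inpp4b (1.0907) and Gpr155 (1.0958) were inside, while Fxyd3 (1.102) and Btnl2 (1.1037) were outside.

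In the fit over all 16975 tested genes (edgeR quasi-likelihood, Benjamini-Hochberg adjusted p under 0.05), 122 of 122 members were called lower at 0.5 µg/ml than in control, where 33.1% of all tested genes were lower. All 122 were also called lower at 0.5 than at 0.1 µg/ml, with 29.1% of all genes. At 0.1 µg/ml against control 0 members were called lower and 0 higher, with 13.8% and 20.8% of all genes; the rule used all 3 of these contrasts, so nothing is read from the counts. At an unadjusted p under 0.05, 2 members passed at 0.1 µg/ml, against 43.8% of all genes. DESeq2 called 0 there and limma on log2(TPM + 1) called 1, Lrrc66. The fitted median log2 fold change of the members was -1.2 at 0.5 µg/ml and -0.03 at 0.1 µg/ml, beside medians of 0 and 0.02 over all genes. The 95% interval of a member at 0.1 µg/ml reached a median of 0.19 to each side on the log2 scale. Of 122 intervals, 120 lay within 0.5 of no change, and those of Lrrc39 (-0.53 to 0.32) and Abcc6 (-0.54 to 0.35) reached further. The rule kept each member's ratio at this dose close to control, which holds the middle of its interval near no change. Nothing is therefore read from the count of intervals, and no share over all tested genes is given beside it.

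Among the members were 7 transcriptional regulators. Hnf4g (ENSMUSG00000017688), a nuclear receptor of the HNF4 family that binds enterocyte genes, stood at 90.2 and 93.9 CPM in control, 105 and 88.5 CPM at 0.1 µg/ml and 34.7 and 30.6 CPM at 0.5 µg/ml. Its control and low-dose libraries overlapped. Both high-dose libraries lay below them by the rule, at a ratio of the means of 0.355 (log2 fold change -1.41, SE 0.09). Mlxipl (ENSMUSG00000005373), which encodes the carbohydrate-sensing factor ChREBP, was at 274 and 293 CPM in control, 291 and 276 CPM at 0.1 µg/ml and 118 and 106 CPM at 0.5 µg/ml. Its high-dose libraries lay below the others, again by the rule (log2 fold change -1.25, SE 0.06). Rxra (ENSMUSG00000015846), the shared partner of many nuclear receptors, was at 81.8 and 87.7 CPM in control, 89 and 77.5 CPM at 0.1 µg/ml and 34 and 34.2 CPM at 0.5 µg/ml, and its mean at 0.1 µg/ml was 0.983 of control. Nr1h3, the oxysterol receptor LXRα, went from 22.7 and 22.4 CPM to 23.3 and 20.8 and 10 and 9.64 CPM. Maf, a leucine zipper factor, and Crebl2, a relative of CREB, had the lowest control levels of the 7 per transcript length, at 1.27 ± 0.148 and 2.71 ± 0.106 TPM (SD, n = 2), with ratios of 0.468 and 0.453 at 0.5 µg/ml. In all 7 the mean at 0.1 µg/ml was at least 0.951 of control.

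Relatives of these regulators outside the set did not all share the pattern; they were picked after their values were seen. Hnf4a, the paralog of Hnf4g, was at 853 and 842 CPM in control, 679 and 698 CPM at 0.1 µg/ml and 351 and 333 CPM at 0.5 µg/ml. It was lower at both doses, with a log2 fold change of -0.26 at 0.1 µg/ml (edgeR adjusted p = 0.000948) and -1.22 at 0.5 µg/ml (adjusted p = 5.86e-09). Vdr, the vitamin D receptor and a partner of RXRα, was likewise lower at both doses, by -0.48 (edgeR adjusted p = 4.44e-05) and -1.83 (adjusted p = 1.01e-09) on the log2 scale. Nr1h4 (the bile acid receptor FXR) and Ppara passed the edgeR test at 0.5 µg/ml, at -1.65 and -1.38 (adjusted p = 5.09e-07 and 7.55e-06). They stood at -0.17 and -0.28 at 0.1 µg/ml and did not pass (edgeR adjusted p = 0.216 and 0.0951), with mean CPM ratios of 0.866 and 0.798 that lie below the window. Nr1h2, the LXRβ gene, had log2 fold changes of -0.06 and -0.04 that did not pass at either dose (edgeR adjusted p = 0.447 and 0.487).

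Drug and xenobiotic metabolism held 14 members, with a median ratio of 0.344 at 0.5 µg/ml. The P450 genes Cyp2c55 (ENSMUSG00000025002), Cyp2c65 (ENSMUSG00000067231) and Cyp2c66 (ENSMUSG00000067229), monooxygenases of fatty acids and drugs, follow each other as protein-coding genes on chromosome 19 in the RefSeq gene order. Cyp2c65 was at 219 and 261 CPM in control, 258 and 235 CPM at 0.1 µg/ml and 82.5 and 80.1 CPM at 0.5 µg/ml. Cyp2c66 was at 234 and 296 CPM in control, 317 and 250 CPM at 0.1 µg/ml and 89.8 and 93.2 CPM at 0.5 µg/ml, and Cyp2c55 at 218 and 254 CPM in control, 271 and 238 CPM at 0.1 µg/ml and 90.5 and 94.2 CPM at 0.5 µg/ml. In each of the 3 the low-dose libraries fell within or just above the control range and the high-dose pair agreed closely, at ratios of 0.339, 0.345 and 0.391. Per transcript length they were also similar, at 148 ± 17.3, 156 ± 20.5 and 202 ± 34.7 TPM in control (SD, n = 2) for Cyp2c55, Cyp2c65 and Cyp2c66, though reads shared by these near relatives were divided by estimate.

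Other genes of the Cyp2c family moved differently. Cyp2c29 was at 98.5 and 110 CPM in control, 160 and 136 CPM at 0.1 µg/ml and 46 and 51.2 CPM at 0.5 µg/ml; it was higher at 0.1 µg/ml, by 0.54 on the log2 scale (edgeR adjusted p = 0.000841), and lower at 0.5 µg/ml, at -1.01 (adjusted p = 4.14e-06). Cyp2c68 was lower at both doses, with log2 fold changes of -0.40 (edgeR adjusted p = 0.0076) and -2.53 (adjusted p = 2.21e-08). The carboxylesterase 2 family, which cleaves ester drugs, showed the same 3 courses. Its member here, Ces2e (ENSMUSG00000031886), stood at 387 and 448 CPM in control, 479 and 383 CPM at 0.1 µg/ml and 137 and 149 CPM at 0.5 µg/ml (log2 fold change at 0.5 µg/ml -1.45, SE 0.10). Ces2c was higher at 0.1 µg/ml (0.68, edgeR adjusted p = 0.00381) and Ces2a lower (-0.33, adjusted p = 0.0195), while both were lower at 0.5 µg/ml (-0.80 and -2.16, adjusted p = 0.000573 and 3.01e-08). Differences between genes of a family were not tested.

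The promoter windows of the 3 Cyp2c members, of Ces2e and of Clrn3 (a clarin, a membrane protein with several membrane spans) are shown because they are poor in CpG, the commoner state among members. That of Rxra is shown as a CpG-rich member. Each runs 5′ to 3′ on the gene's strand, from 250 bases before to 50 after the transcription start, from RefSeq on build GRCm38.p6. The windows are chr19:39006769-39007068 (plus strand) for Cyp2c55, chr19:39060756-39061055 (plus) for Cyp2c65, chr19:39113648-39113947 (plus) for Cyp2c66, chr8:104926010-104926309 (plus) for Ces2e, chr7:135528605-135528904 (minus) for Clrn3 and chr2:27676951-27677250 (plus) for Rxra. Capitals mark matches on either strand to CAAAGT (part of the HNF4 motif), GTTAAT (HNF1), TTTATG (CDX) and AGATAA (for GATA factors). They also mark TATAAA on either strand (letters of the TATA box, at any position).
Cyp2c55: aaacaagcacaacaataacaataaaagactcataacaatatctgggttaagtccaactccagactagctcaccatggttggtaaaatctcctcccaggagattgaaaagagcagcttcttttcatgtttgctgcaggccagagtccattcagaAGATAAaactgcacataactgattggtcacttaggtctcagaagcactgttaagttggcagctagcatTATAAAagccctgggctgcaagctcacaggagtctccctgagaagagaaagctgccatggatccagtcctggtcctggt
Cyp2c65: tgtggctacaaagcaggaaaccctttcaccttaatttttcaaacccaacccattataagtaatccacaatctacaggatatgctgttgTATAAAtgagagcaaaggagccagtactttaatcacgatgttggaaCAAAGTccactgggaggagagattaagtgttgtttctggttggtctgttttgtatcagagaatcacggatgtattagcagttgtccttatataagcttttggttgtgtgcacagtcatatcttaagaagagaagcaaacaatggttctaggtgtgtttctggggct
Cyp2c66: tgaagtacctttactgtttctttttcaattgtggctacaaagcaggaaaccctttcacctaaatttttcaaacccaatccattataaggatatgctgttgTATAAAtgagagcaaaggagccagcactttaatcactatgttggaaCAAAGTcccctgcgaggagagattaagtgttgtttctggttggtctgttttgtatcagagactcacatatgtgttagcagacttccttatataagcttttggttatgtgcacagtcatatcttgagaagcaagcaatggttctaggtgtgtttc
Ces2e: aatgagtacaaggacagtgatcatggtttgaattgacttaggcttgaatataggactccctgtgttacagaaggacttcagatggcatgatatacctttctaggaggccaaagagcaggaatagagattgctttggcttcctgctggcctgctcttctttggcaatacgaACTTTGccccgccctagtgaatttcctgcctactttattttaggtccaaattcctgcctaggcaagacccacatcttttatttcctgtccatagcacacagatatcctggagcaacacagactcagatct
Clrn3: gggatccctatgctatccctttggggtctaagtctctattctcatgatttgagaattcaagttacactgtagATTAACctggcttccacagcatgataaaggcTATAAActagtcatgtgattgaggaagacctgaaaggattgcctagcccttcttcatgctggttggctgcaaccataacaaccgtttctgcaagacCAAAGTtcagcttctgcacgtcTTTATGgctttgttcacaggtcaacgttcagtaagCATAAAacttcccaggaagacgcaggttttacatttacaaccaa
Rxra: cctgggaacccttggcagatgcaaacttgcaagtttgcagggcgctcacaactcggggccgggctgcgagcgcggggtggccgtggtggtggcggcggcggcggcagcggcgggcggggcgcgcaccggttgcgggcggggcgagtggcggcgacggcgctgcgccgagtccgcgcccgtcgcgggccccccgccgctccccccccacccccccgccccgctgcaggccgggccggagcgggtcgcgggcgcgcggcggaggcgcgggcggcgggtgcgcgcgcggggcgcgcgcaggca

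Cyp2c65 and Cyp2c66 were identical at 256 of 271 aligned bases (94.5%), and both carry CAAAGT, at -116 and -104 from the start. Cyp2c55 was 70.5% and 71.5% identical to them, has no CAAAGT in this window, and has AGATAA at -97. All 3 hold TATAAA, at -29 in Cyp2c55, -162 in Cyp2c65 and -150 in Cyp2c66. In the windows of all genes the first TATAAA on the printed strand was most often between -50 and -25 (615 windows). Of these 3 matches only that of Cyp2c55 lies there, and the match in Clrn3 (below) does not. Variants of these letters were not searched, so the place of a TATA box is not read from the marks. Ces2e has CAAAGT on the opposite strand at -80. Clrn3 holds CAAAGT at -51, TATAAA at -147, GTTAAT on the opposite strand at -178, and TTTATG at -29 and, on the opposite strand, at 7. The Rxra window has a GC content of 83% and none of these 5 matches. Apart from that of Cyp2c55, the CpG-poor windows shown carry CAAAGT. Of all members' windows with a CpG ratio under 0.5, 29.1% do, so the windows shown are not typical in this match. A match of letters is a description and not a binding site.

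Conjugating enzymes made up most of the rest of this group. Sult1c2 (ENSMUSG00000023122), a sulfotransferase, was at 14.8 and 16 CPM in control, 14.2 and 14.1 CPM at 0.1 µg/ml and 3.89 and 3.72 CPM at 0.5 µg/ml, the lowest ratio to control of any member. Mgst1 (ENSMUSG00000008540), a membrane-bound glutathione transferase, was at 178 and 195 CPM in control, 179 and 158 CPM at 0.1 µg/ml and 55.3 and 52 CPM at 0.5 µg/ml; its second low-dose library lay below both controls. The cytosolic glutathione transferase gene Gstm2 had 16.8 and 21.6 CPM in control, 19.9 and 17.9 CPM at 0.1 µg/ml and 5.01 and 6.41 CPM at 0.5 µg/ml. Gstm7, of the same family, went from 10.7 and 11.8 to 11.5 and 10.1 and 3.89 and 4.27 CPM. These 4 genes had high-dose ratios of 0.247, 0.287, 0.298 and 0.363, and genes of the Gstm family share reads. Of their relatives outside the set, Gstm1 and Gstm3 were higher at 0.1 µg/ml (0.35 and 0.70 on the log2 scale, edgeR adjusted p = 0.0234 and 0.00494) and lower at 0.5 µg/ml (-0.79 and -0.49, adjusted p = 8.59e-05 and 0.0134). Mgst2 and Mgst3 were higher at both doses, Mgst3 by 0.65 and 0.88 (edgeR adjusted p = 3.7e-05 and 8.81e-07).

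Glucuronidation was represented by the transferase gene Ugt1a7c (ENSMUSG00000090124), at 278 and 281 CPM in control, 279 and 246 CPM at 0.1 µg/ml and 101 and 91.2 CPM at 0.5 µg/ml, and by Ugdh (ENSMUSG00000029201), the enzyme that makes UDP-glucuronic acid, at 263 and 262 CPM in control, 291 and 264 CPM at 0.1 µg/ml and 136 and 126 CPM at 0.5 µg/ml. Ugt1a7c shares its last exons with the other genes of the Ugt1a locus, so its reads are divided by estimate. From the same locus, Ugt1a1 was lower at both doses (-0.28 and -1.96 on the log2 scale, edgeR adjusted p = 0.0156 and 1.46e-08). Ugt1a6a was higher at both, at 12.7 and 16.7 CPM in control, 43.5 and 38.5 CPM at 0.1 µg/ml and 51 and 52.6 CPM at 0.5 µg/ml (edgeR adjusted p = 4.57e-06 and 1.7e-07). The remaining members of the group were Cda (cytidine deaminase, 49.6 and 54.5 to 17.5 and 16 CPM), Aldh9a1 (an aldehyde dehydrogenase, 276 and 299 to 126 and 118 CPM from control to 0.5 µg/ml), Nat8f4 (of an N-acetyltransferase family) and Blvrb (biliverdin reductase B). Their ratios at 0.5 µg/ml were 0.321, 0.424, 0.354 and 0.447.

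The ABC transporters gave 4 members. Abcc2 (ENSMUSG00000025194), the apical pump MRP2 for glucuronide and glutathione conjugates, was at 267 and 292 CPM in control, 288 and 237 CPM at 0.1 µg/ml and 89.9 and 92.7 CPM at 0.5 µg/ml. Abcg2, the drug pump BCRP, was at 43.7 and 43.1 CPM in control, 43.2 and 39.6 CPM at 0.1 µg/ml and 16.4 and 20.8 CPM at 0.5 µg/ml, and Abcc6, needed for release of ATP from cells, at 4.68 and 6.32 CPM in control, 5.9 and 4.01 CPM at 0.1 µg/ml and 1.32 and 1.52 CPM at 0.5 µg/ml. Abcc6 is near the control floor, and its low-dose libraries spread around those of control. Abcg8 (ENSMUSG00000024254), which pairs with Abcg5 to pump plant sterols and cholesterol into the lumen, was at 103 and 105 CPM in control, 104 and 95.3 CPM at 0.1 µg/ml and 31.6 and 33.5 CPM at 0.5 µg/ml. Its log2 fold change was -1.58 (SE 0.06) at 0.5 µg/ml and -0.02 at 0.1 µg/ml (95% interval -0.14 to 0.10). The partner gene Abcg5, outside the set, was at 89.6 and 97.5 CPM in control, 111 and 102 CPM at 0.1 µg/ml and 35 and 35.6 CPM at 0.5 µg/ml, with log2 fold changes of 0.22 at 0.1 µg/ml (95% interval 0.10 to 0.35, edgeR adjusted p = 0.012) and -1.32 at 0.5 µg/ml (adjusted p = 3.38e-08). The low-dose intervals of the 2 genes meet at their edges. The rule held the low-dose ratio of Abcg8 near control and left out Abcg5 at a ratio of 1.14, so nothing is read from this. The difference between the 2 genes was not tested.

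Lipid uptake, storage and oxidation was the largest named group, with 15 members and a median ratio of 0.421 at 0.5 µg/ml. Npc1l1 (ENSMUSG00000020447), the cholesterol uptake protein of the brush border, was at 152 and 161 CPM in control, 184 and 156 CPM at 0.1 µg/ml and 65.1 and 61 CPM at 0.5 µg/ml. Only the first low-dose library stood above both controls, and the log2 fold change at 0.5 µg/ml was -1.22 (SE 0.08). Pla2g12b, which takes part in lipoprotein assembly, went from 9.4 and 11.3 CPM in control to 12.6 and 9.68 and 3.67 and 4.31 CPM. Storage was represented by Gpat3 (glycerol phosphate acyltransferase), Cidec (a lipid droplet protein) and Angptl8 (a regulator of lipoprotein lipase), with ratios of 0.483, 0.421 and 0.391. Sec16b, a protein of endoplasmic reticulum exit sites, had 33.4 and 33.2 CPM in control, 38.2 and 33.6 CPM at 0.1 µg/ml and 14.4 and 14.9 CPM at 0.5 µg/ml. Faah, which breaks down fatty acid amides, had 143 and 159 CPM in control, 150 and 123 CPM at 0.1 µg/ml and 56.6 and 58.5 CPM at 0.5 µg/ml, its second low-dose library lying below both controls. Pld1 (phospholipase D1), Tmem86b (a lysoplasmalogenase) and Pxmp4 (a peroxisomal membrane protein) had ratios of 0.428, 0.399 and 0.425.

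Enzymes of fatty acid oxidation were part of the same group. Hadh (ENSMUSG00000027984), a mitochondrial hydroxyacyl-CoA dehydrogenase, was at 307 and 321 CPM in control, 309 and 280 CPM at 0.1 µg/ml and 150 and 146 CPM at 0.5 µg/ml. Ehhadh (ENSMUSG00000022853), the peroxisomal bifunctional enzyme, was at 73.2 and 80.3 CPM in control, 85.2 and 77.3 CPM at 0.1 µg/ml and 31.8 and 29.8 CPM at 0.5 µg/ml, and Decr1, a dienoyl-CoA reductase needed for unsaturated fatty acids, at 38.1 and 43.5 CPM in control, 42.5 and 34.9 CPM at 0.1 µg/ml and 16.2 and 16.7 CPM at 0.5 µg/ml. In all 3 the high-dose pair was below the rest by the rule, at ratios of 0.472, 0.401 and 0.403. The neighbouring acyl-CoA dehydrogenase genes Acad10 and Acad12 had ratios of 0.490 and 0.456. Hadha and Hadhb, which encode the mitochondrial trifunctional protein, were lower at 0.5 µg/ml by less (-0.58 and -0.43 on the log2 scale, edgeR adjusted p = 3.68e-06 and 1.44e-05).

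Of the chylomicron genes outside the set, 2 were higher at the low dose and lower at the high dose. Apob, the scaffold protein of chylomicrons, stood at 740 and 768 CPM in control, 982 and 798 CPM at 0.1 µg/ml and 299 and 295 CPM at 0.5 µg/ml, higher at 0.1 µg/ml by 0.28 on the log2 scale (edgeR adjusted p = 0.0267) and lower at 0.5 µg/ml at -1.25 (adjusted p = 6.06e-07). Mttp, which loads lipid onto it, had 0.31 (edgeR adjusted p = 0.0223) and -1.11 (adjusted p = 2.6e-06). In both genes the first low-dose library was above and the second only slightly above the controls.

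Carbohydrate metabolism held 5 members. Mgam (ENSMUSG00000068587), the brush border maltase-glucoamylase that releases glucose from starch, was at 739 and 767 CPM in control, 782 and 710 CPM at 0.1 µg/ml and 307 and 304 CPM at 0.5 µg/ml. Another brush border disaccharidase gene, Sis (sucrase-isomaltase), was not a member. It was at 663 and 789 CPM in control, 1340 and 1010 CPM at 0.1 µg/ml and 516 and 507 CPM at 0.5 µg/ml. Sis was higher at 0.1 µg/ml (0.73, edgeR adjusted p = 0.00119) and lower at 0.5 µg/ml (-0.41, adjusted p = 0.0113). Lct (lactase), also outside the set, fell to 0.5 of control or less at the high dose from above 1.1 at the low dose. Khk (ENSMUSG00000029162), ketohexokinase, which starts fructose breakdown, was at 127 and 138 CPM in control, 159 and 126 CPM at 0.1 µg/ml and 66 and 62.8 CPM at 0.5 µg/ml. Its first low-dose library lay above both controls and the second just below them. The fructose transporter gene Slc2a5 was higher at 0.1 µg/ml (0.55, edgeR adjusted p = 0.00143) and lower at 0.5 µg/ml (-0.43, adjusted p = 0.00301). Hkdc1, a hexokinase, went from 130 and 151 CPM to 137 and 122 and 45 and 46.6 CPM. Pfkm (muscle-type phosphofructokinase) and Cryl1 (gulonate dehydrogenase) had ratios of 0.426 and 0.369 at 0.5 µg/ml.

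**Figure D2:**
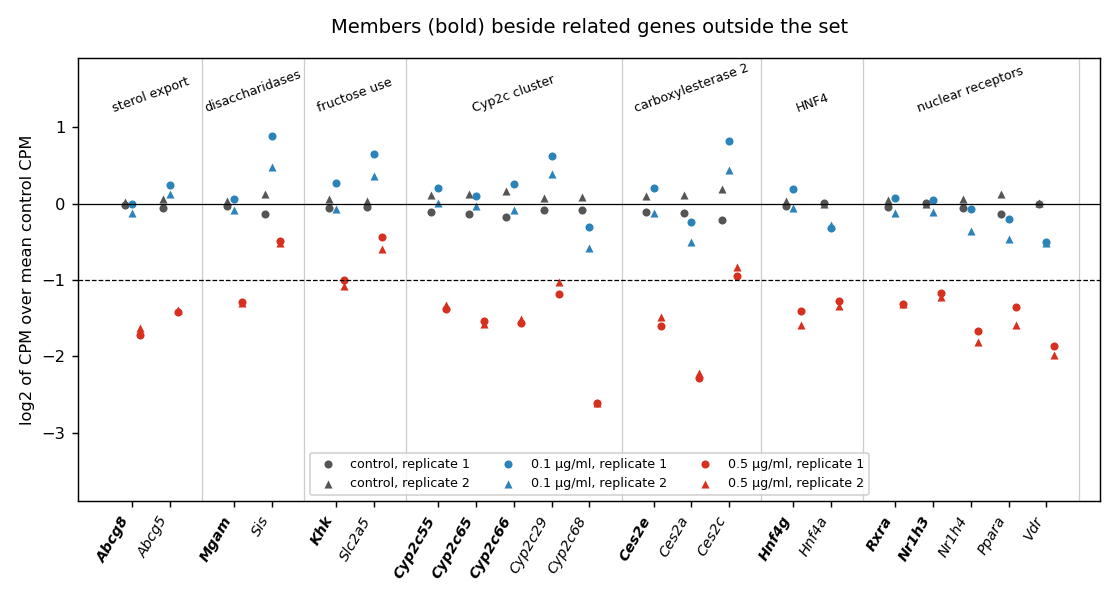
Each point is 1 library, as the log2 of its CPM over the mean control CPM of the gene (y axis), for members (bold) and related genes outside the set; circles are replicate 1 and triangles replicate 2, and the dashed line marks a ratio of 0.5. At 0.1 µg/ml (blue) the members sit around 0 by the rule, while relatives such as Sis, Cyp2c29 and Ces2c lie above 0 and Hnf4a, Cyp2c68 and Vdr below it.

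Peptide, vitamin and ion handling held 8 members. Atp1b1 (ENSMUSG00000026576), the β1 subunit of the sodium pump, had the highest control level of any member per transcript length, at 450 ± 16.9 TPM (SD, n = 2). In counts it was at 872 and 901 CPM in control, 968 and 911 CPM at 0.1 µg/ml and 424 and 410 CPM at 0.5 µg/ml (log2 fold change at 0.5 µg/ml -1.0, SE 0.05). Cybrd1, the duodenal reductase of dietary iron, was at 118 and 144 CPM in control, 127 and 151 CPM at 0.1 µg/ml and 58.9 and 59.7 CPM at 0.5 µg/ml. The iron transporter Slc11a2, which takes up the reduced iron, was higher at both doses, at 187 and 173 and 105 and 114 CPM from 73.3 and 86.5 CPM in control (edgeR adjusted p = 2.01e-06 and 0.000113). Tcn2, the vitamin B12 carrier transcobalamin, went from 69.7 and 70.1 CPM to 68.6 and 61.7 and 30.6 and 28.9 CPM. The peptidase genes Xpnpep2, Naaladl1 and Pgpep1 had ratios of 0.316, 0.424 and 0.495 at 0.5 µg/ml, the amino acid transporter gene Slc43a2 0.474, and Pdzd3, an apical scaffold protein, 0.304.

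Cell surface, junction and brush border genes numbered 12, with a median ratio of 0.357 at 0.5 µg/ml. Tm4sf5 (ENSMUSG00000018919) and Tm4sf20, tetraspanin-like membrane proteins, were at 132 and 144 CPM in control, 132 and 117 CPM at 0.1 µg/ml and 42.2 and 40.5 CPM at 0.5 µg/ml and at 284 and 252 CPM in control, 285 and 252 CPM at 0.1 µg/ml and 111 and 108 CPM at 0.5 µg/ml. Cldn15 (ENSMUSG00000001739), a claudin that forms sodium-permeable pores in intestinal tight junctions, was at 245 and 246 CPM in control, 258 and 247 CPM at 0.1 µg/ml and 114 and 101 CPM at 0.5 µg/ml. Its low-dose libraries were at or slightly above control, and its high-dose libraries lay below all others by the rule. Calml4, a light chain of the complex that links microvilli at their tips, was at 102 and 108 CPM in control, 106 and 102 CPM at 0.1 µg/ml and 39.7 and 41.9 CPM at 0.5 µg/ml. Of the other genes of that complex, Anks4b was lower at 0.5 µg/ml by -0.52 on the log2 scale (edgeR adjusted p = 4.07e-06) and Ush1c was higher, by 0.69 (adjusted p = 6.01e-06). The cadherin genes Cdhr2 and Cdhr5 were higher at 0.1 µg/ml (0.51 and 0.54, edgeR adjusted p = 0.000474 and 9.9e-05) and lower at 0.5 µg/ml (-0.52 and -0.34, adjusted p = 0.000132 and 0.000609). Myo7b did not pass at either dose (0.12 and 0.08, edgeR adjusted p = 0.0823 and 0.151).

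The lowest ratios of the surface group belonged to Tmem238l (0.262) and the lectin receptor gene Cd302 (0.274), which stood at 13.9 and 15.4 CPM in control, 13.6 and 12.7 CPM at 0.1 µg/ml and 3.86 and 3.81 CPM at 0.5 µg/ml and at 26.2 and 25 CPM in control, 25.2 and 21.6 CPM at 0.1 µg/ml and 7.88 and 6.15 CPM at 0.5 µg/ml. Tmprss2, a membrane serine protease that cleaves viral spike proteins, was near the limit at 0.495, with 249 and 255 CPM in control, 238 and 237 CPM at 0.1 µg/ml and 130 and 120 CPM at 0.5 µg/ml. Clrn3, whose promoter window is printed above, went from 65.2 and 66.1 CPM to 60.6 and 62.1 and 26.3 and 22.3 CPM. Tmem236, Ceacam18 (a cell adhesion protein), Antxr2 (an anthrax toxin receptor) and Lrrc66 had ratios of 0.306, 0.329, 0.345 and 0.373. Both low-dose libraries of Lrrc66 were below both controls, at 24.8 and 23.8 against 26.5 and 26.4 CPM.

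Genes of immune signalling and innate defence made up 10 members. Ccl25 (ENSMUSG00000023235), the chemokine that draws lymphocytes bearing CCR9 to the small intestine, was at 157 and 168 CPM in control, 168 and 140 CPM at 0.1 µg/ml and 56.3 and 58.3 CPM at 0.5 µg/ml. Cx3cl1, a membrane-bound chemokine, was at 47.1 and 49.2 CPM in control, 50.3 and 43 CPM at 0.1 µg/ml and 19.4 and 19.1 CPM at 0.5 µg/ml, and Casp1, the protease that matures interleukin 18, at 49.6 and 56.3 CPM in control, 54.2 and 54 CPM at 0.1 µg/ml and 25.1 and 25.2 CPM at 0.5 µg/ml. In each of the 3 genes the high-dose libraries were close to each other and, by the rule, below the rest. Il18 itself was outside the set and higher at both doses, at 9.44 and 8.69 and 8.96 and 11.7 CPM against 2.94 and 2.98 CPM in control (edgeR adjusted p = 1.95e-05 and 1.53e-06). Cd38, an enzyme that consumes NAD, and Trim31, a ubiquitin ligase of the TRIM family, went from 57.8 and 67.2 to 25.3 and 21.2 CPM and from 34.8 and 36.7 to 13.5 and 13.9 CPM between control and 0.5 µg/ml. Cytip (0.304), the cytokine receptor kinase gene Jak3 (0.350), Ms4a18 (0.345), Pstpip2 (0.388) and Clec2d (0.459) were the other members, all under 20 CPM in control on average. The immune markers given above summed to at most 14.9 CPM in any library.

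Signalling genes numbered 12 and lay nearer the limit, with a median ratio of 0.449. They were the kinase genes Tnik, Peak1 and Camk2b, the scaffold gene Ksr1 of the Raf pathway, the lipid phosphatase gene Inpp4b, and the lysophosphatidic acid receptor gene Lpar1. The others were the GTPase regulator genes Arhgef10l, Rgs11 and Elmo1, the calcium entry genes Orai3 and Cracr2b, and Tns2, a tensin. Tnik was at 54.6 and 59.2 CPM in control, 56 and 54.2 CPM at 0.1 µg/ml and 25.5 and 25 CPM at 0.5 µg/ml. Rgs11 had control libraries at 12.7 and 19.7 CPM, which is wider apart than its control to low-dose difference (14.8 and 15.1 CPM at 0.1 µg/ml), and 6.36 and 6.71 CPM at 0.5 µg/ml. Tnik and Pld1 are neighbouring protein-coding genes on chromosome 3 in the RefSeq order, as are Abcg2 and Herc3 on chromosome 6 and Acad12 and Acad10 on chromosome 5.

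Secretory stress and vesicle traffic held 7 members. Ern2 (ENSMUSG00000030866), the stress sensor IRE1β of goblet cells, was at 9.5 and 11.3 CPM in control, 8.62 and 10.8 CPM at 0.1 µg/ml and 3.84 and 2.81 CPM at 0.5 µg/ml. Sytl2, a vesicle docking protein, and Sorl1, a sorting receptor, had ratios of 0.472 and 0.398, and Efr3b, Zfyve21, Erlin1 and Dynlt1a had ratios from 0.381 to 0.496. The 3 glycan synthesis genes were B4galnt3 and Mgat3, both glycosyltransferases, and Slc35a3, a nucleotide sugar transporter, at 0.436, 0.496 and 0.484. The ubiquitin ligase genes were Rnf152, Rnf157 and Herc3, at 0.305, 0.472 and 0.473. The remaining 22 members were not assigned to any of these role groups. They were Pyroxd2, AC117816.1, Thnsl2, Sh3bgrl, Hdhd3, Eif4e3, 1500035N22Rik, 2310001H17Rik, Dglucy, Isoc2b, Ctdspl, Pter, Zfr2, Gucd1, Lrrc39, Tsku, 1110032A03Rik, Ociad2, Vwa5a, Thsd4, Gpr155 and Btbd2, with ratios from 0.288 (Pyroxd2, at 36.9 and 46 CPM in control, 42.6 and 33.2 CPM at 0.1 µg/ml and 11.3 and 12.5 CPM at 0.5 µg/ml) to 0.495.

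**Figure D3:**
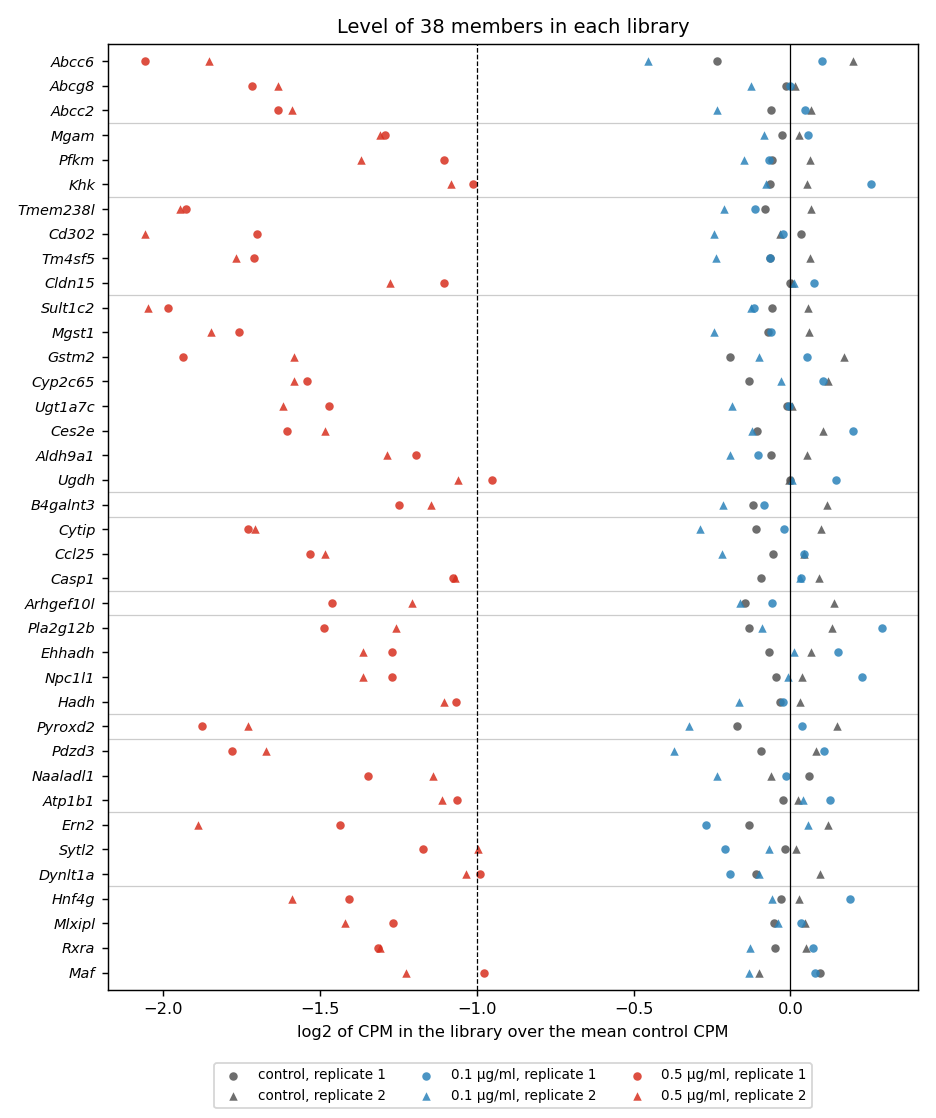
The 38 members named by a rule of the design, in rows grouped by role, with the log2 of each library's CPM over the mean control CPM (x axis); circles are replicate 1 and triangles replicate 2. The solid line is the control mean and the dashed line a ratio of 0.5. By the rule the red high-dose points lie near or left of the dashed line. The grey control and blue low-dose points lie around the solid line, also by the rule.

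Lists of genes by function, whose counts include the members, are given beside the shares of all tested genes, of which 33.1% were lower and 34.4% higher at 0.5 µg/ml and 13.8% lower and 20.8% higher at 0.1 µg/ml. Of 44 tested genes of xenobiotic and steroid metabolism, 27 were lower and 10 higher at 0.5 µg/ml than in control, and 8 are members. Of the 44, 22 were higher and 4 lower at 0.1 µg/ml, with a median log2 fold change of 0.4 against 0.02 for all genes; at 0.5 µg/ml the median was -0.75 against 0. Of 28 genes of lipid uptake and lipoprotein assembly, 20 were lower and 2 higher at 0.5 µg/ml (median -0.49), while 14 were higher and 1 lower at 0.1 µg/ml (median 0.27). The 3 members of that list are Npc1l1, Abcg8 and Pla2g12b. A further 5 of its genes, Apob, Mttp, Fabp1, Fabp2 and Abcg5, fell to 0.5 or less at the high dose from above 1.1 at the low dose. Of 24 brush border and digestion genes, 12 were lower and 4 higher at 0.5 µg/ml and 3 lower and 14 higher at 0.1 µg/ml (medians -0.29 and 0.38); Mgam and Naaladl1 are members.

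Of 32 genes of peroxisomes and fatty acid oxidation, 20 were lower and 5 higher at 0.5 µg/ml, and 3 lower and 12 higher at 0.1 µg/ml (medians -0.35 and 0.05), with Ehhadh and Hadh as members. Intestinal transcription factors took another course. Of 36, 23 were lower and 8 higher at 0.5 µg/ml and 16 lower and 7 higher at 0.1 µg/ml (medians -0.97 and -0.16), with Hnf4g and Maf as members. The crypt base stem cell, Paneth cell and enteroendocrine lists held 0 members. Of 28 tested stem cell genes 21 were already lower at 0.1 µg/ml, of 23 Paneth cell genes 16, and of 29 enteroendocrine genes 25 (medians -0.6, -1.07 and -1.26). Of the 14 stem cell, 9 Paneth cell and 16 enteroendocrine genes that fell to 0.5 or less without overlap at the high dose, all stood under 0.9 of control at the low dose, as did 84.0% of all genes that fell in this way. The same held for every such gene of 17 of the 30 lists with at least 1. The goblet cell list gave Ern2 and Sytl2. In all, 21 of the 34 lists held 0 members, among them the cell cycle and Wnt lists and the metabolic lists of sterol and lipid synthesis and mitochondrial energy metabolism. These lists have at most 61 genes at the control floor, and with members at 1.17% of such genes a count of 0 is near the background.

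The 2 libraries of a group differed from each other in 1 direction over many members, which the choice of members by group means did not fix. In control, replicate 1 was above replicate 2 in 21 of 122 members (17.2%), against 44.1% of the other genes of at least 5 CPM, with a median log2 difference of -0.1 against -0.01. At 0.1 µg/ml replicate 1 was above replicate 2 in 104 members (85.2%), against 41.8% of the other genes, with medians of 0.14 and -0.02. At 0.5 µg/ml it was above in 61 (50%), against 48.0%. Genes that fell at 0.5 µg/ml and stood under 0.9 at 0.1 µg/ml did not share this, with replicate 1 above replicate 2 in 39.4% of 890 in control and 44.7% at 0.1 µg/ml. The 48 genes that fell from above 1.1 did, with replicate 1 above replicate 2 in 4.17% of them in control and 93.8% at 0.1 µg/ml (medians -0.24 and 0.31), so that the pattern was not particular to the members. The 4 control and low-dose libraries overlapped in 90 members, while in 25 both low-dose libraries lay below both controls and in 7 both lay above. The rule bounds the difference between these groups, and the same order was not counted over all genes, so nothing is read from these counts. Without replicate 1 at 0.1 µg/ml the same rule gave 118 genes, 78 of them members, and without replicate 2 it gave 131, 93 of them members.

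**Figure D4:**
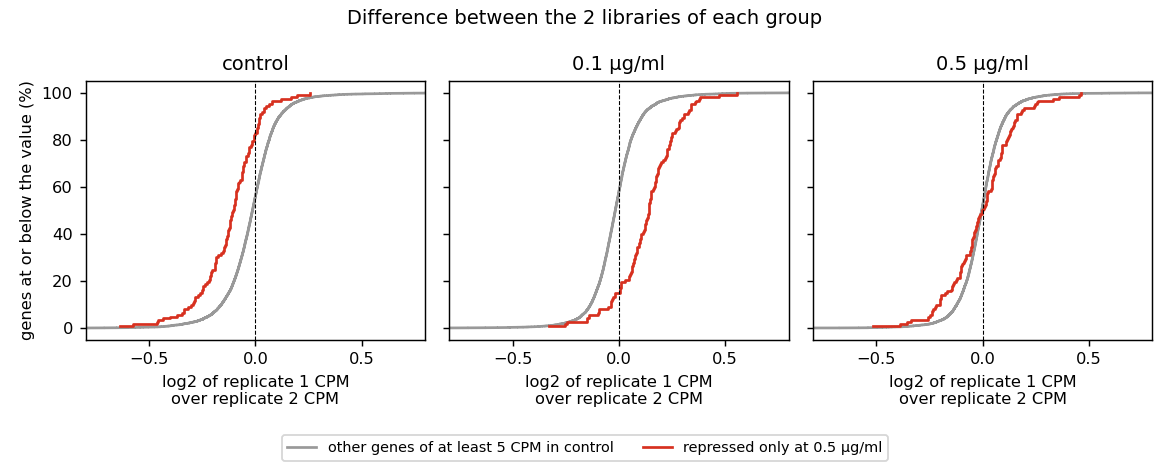
Cumulative share of genes (y axis, percent) by the log2 of replicate 1 CPM over replicate 2 CPM (x axis) in each group, for the 122 members (red) and the 10282 other genes of at least 5 CPM in control (grey). The members lie left of the others in control and right of them at 0.1 µg/ml, with medians of -0.1 and 0.14, and around them at 0.5 µg/ml.

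Promoter sequence did not enter the choice of members. RefSeq windows of 300 bases were matched for 102 of 122 members and for 8043 of 10282 other genes at the control floor. The ratio of observed to expected CpG had a median of 0.443 in members (quartiles 0.275 and 0.731), against 0.796 in the other genes (0.633 and 0.931). It was under 0.5 in 55 members (53.9%), against 14.9% of the others. Among the genes that fell at 0.5 µg/ml, those under 0.9 of control at 0.1 µg/ml had a median of 0.672 with 31.8% under 0.5. Those above 1.1 of control at 0.1 µg/ml had a median of 0.278 with 82.1% under 0.5, so that the members lay between the 2 sets. The median GC content was 57.5% in members and 61.3% in the other genes.

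**Figure D5:**
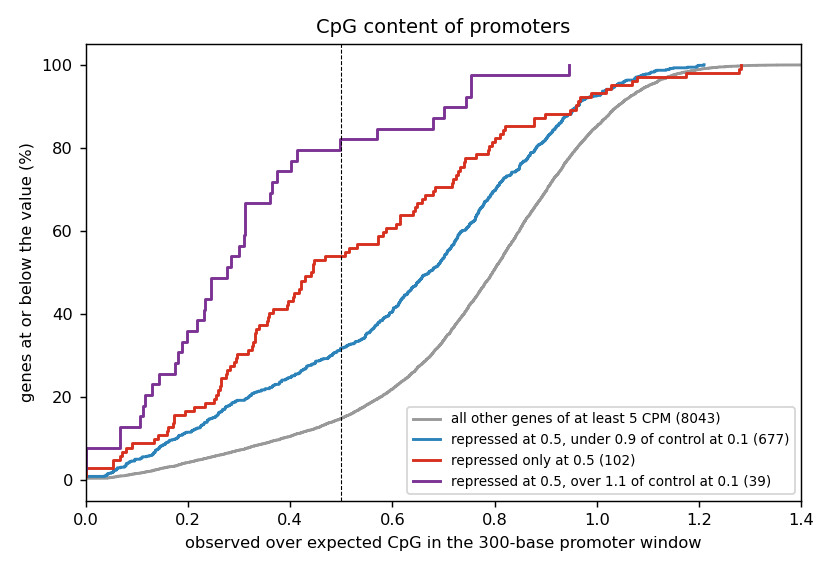
Cumulative share of genes (y axis, percent) by the ratio of observed to expected CpG in the promoter window (x axis), for members (red, 102 windows), other genes of at least 5 CPM (grey, 8043), and genes at or under 0.5 of control at 0.5 µg/ml that were under 0.9 (blue, 677) or above 1.1 (purple, 39) at 0.1 µg/ml. At the dashed line of 0.5 the curves stand at 53.9% for members, 14.9% for other genes, 31.8% and 82.1%.

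Motif letters were counted on both strands of these windows. CAAAGT, part of the HNF4 motif, was in 17.6% of members' windows and 11.5% of the other genes', AGATAA (for GATA factors) in 9.8% and 5.92%, and TATAAA in 14.7% and 6.66%. CCGGAA (ETS) was in 11.8% and 32.0%, and GGGCGG (KLF and SP box) in 49.0% and 67.4%, and both of these contain a CpG. Of the letters for factors of the induced cassette, ATGCAAAT (POU octamer) was in 0.98% and 1.32%, ACAATG (SOX) in 4.9% and 6.83%, CACCC (KLF) in 61.8% and 62.0% and CACGTG (E-box) in 7.84% and 11.2%. Among windows with a CpG ratio under 0.5 alone, CAAAGT was in 29.1% of 55 members' windows and 20.2% of 1196 others, TATAAA in 20% and 13.9%, AGATAA in 18.2% and 13.5%, and CACGTG in 9.09% and 6.35%. In the same class, genes that fell from under 0.9 of control at 0.1 µg/ml had CAAAGT in 20.9% of 215 windows, TATAAA in 20%, AGATAA in 18.6% and CACGTG in 4.19%. Those that fell from above 1.1 had them in 28.1%, 31.2%, 21.9% and 6.25% of 32 windows. In this class GGGCGG was in 25.5% of members' windows and 29.3% of the others, CCGGAA in 5.45% and 12.8%, and CACCC in 50.9% and 65.1%. For these 3 the genes that fell from under 0.9 had 20%, 9.77% and 61.4%, and those from above 1.1 had 9.38%, 6.25% and 59.4%. The members' shares of TATAAA and AGATAA were thus at or below those of the other genes that fell, and no difference in these shares was tested. TTTATG (CDX) was in 7.84% of members' windows and 5.82% of the others, GTTAAT (HNF1) in 5.88% and 4.02%, and CCAAT (NF-Y) in 42.2% and 39.3%. The windows are short, and sequence outside them was not used.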

How the data were processed

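Of the 2 tables the authors deposited, 1 holds expected counts from RSEM, estimates that can be fractions, and the other holds TPM, both over the same genes and 6 libraries. Tools in the submitters' processing notes are RSEM 1.3.3, STAR 2.7.3a, Trim Galore and FastQC, and the builds there are GRCm39 and mm10. Which of these builds, and which strand setting, gave the tables is not given in the sources used. Per the labels' protocols, libraries were poly-A selected, strand-specific and read as 100 bp pairs. RSEM divides shared reads by estimate, so near-identical or overlapping genes are uncertain. Symbols from the GENCODE M21 table matched 94.0% of identifiers.

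Members were found from CPM of the unrounded expected counts. For tests, counts were rounded, kept by edgeR's filterByExpr (16975 genes, 99.96% of counts) and scaled by TMM. All 6 libraries entered 1 quasi-likelihood fit (edgeR 4.0.16, R 4.3.3) with a mean per group, 3 residual degrees of freedom and two-sided Benjamini-Hochberg adjusted p-values over all tested genes. Standard errors come from the F statistic. An exact permutation test of 1 gene, with 2 against 2 libraries, cannot go below p = 0.333. DESeq2 1.42.0 and limma 3.58.1 were alternatives. The code was tested on simulated data. Replicates differed by more than sampling noise (chi-square per degree of freedom 8.06 to 9.1).

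The members and the gene lists (34 lists, 1254 of 1258 entries found) were chosen with earlier results of these data known. The rule for the 38 named members took the 10 lowest ratios at 0.5 µg/ml, the 6 highest control levels, up to 4 members of each list, and the 2 nearest the 0.5 limit. Other members, the role groups and the related genes outside the set were named after their values were seen. Promoter windows come from RefSeq on GRCm38.p6; genes with several windows gave their first. A regulator among the members and some related genes are not reported here.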

Additional observations from a re-analysis of the deposited data

How the results depend on the processing

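The number of members depended most on the limits of the rule: a wider window at 0.1 µg/ml, from 0.8 to its inverse, gave 352 genes, one within 5% of control gave 42, and a limit at 0.5 µg/ml of 0.4 or 0.67 gave 54 or 448. A control floor of 1 or 10 CPM gave 162 or 104. Scaling by TMM gave 112 genes, of which 87 were members, and TPM gave 104, of which 86 were. Leaving out 1 library gave 117 to 136 genes, with 78 to 116 members among them.

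All 122 members were called lower at 0.5 than at 0.1 µg/ml, and than in control, under each alternative with 2 libraries a group. The rule used these contrasts, so nothing is read from the count. In the main fit 29.1% of all tested genes were lower at 0.5 than at 0.1 µg/ml, and 33.1% than in control. At 0.1 µg/ml against control the count of members called was 0 in the main edgeR fit. With edgeR on every gene of at least 1 count it was 5 (Npc1l1, Cyp2c55, Atp1b1, Khk and Cyp2c66, all higher). In that setting 6396 of 29112 genes changed. It was 1 with limma on log2(TPM + 1), 1 with limma on log2(TPM + 0.1), and 0 to 6 when 1 library was left out; the cause was not tested. The 6 called without replicate 1 at 0.1 µg/ml were lower (Mgst1, Tm4sf5, Ccl25, Abcc2, Faah and Tmem236). Of the 5 called without replicate 2 at that dose, 4 were higher (Npc1l1, Atp1b1, Sec16b and Khk) and 1 lower (Rnf157). Over all genes, 5881 changed at 0.1 µg/ml, against 3756 and 3884 with limma at the 2 pseudocounts and 3800 to 5248 without 1 library, the lowest without replicate 1 at 0.1 µg/ml. The 11465 genes changed at 0.5 µg/ml against control became 10080 to 11633 without 1 library, and the 10002 between the doses became 8120 to 10269. Upper quartile scaling moved the share of calls that were higher from 50.9% to 43.7% at 0.5 µg/ml, from 60% to 50.4% at 0.1 µg/ml and from 50.6% to 44.7% between the doses. For the 38 named members no call reversed its direction under any alternative. At 0.5 µg/ml the rule fixes this, and at 0.1 µg/ml the main fit called 0 members and so left no call to reverse. Nothing is therefore read from it.

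The differences between replicates 1 and 2 had weak correlations of mixed sign between groups (-0.209, 0.183 and -0.0698). Whether the replicate numbers pair the libraries was not tested. With the replicate block, 11162 genes changed at 0.5 µg/ml, 5265 at 0.1 µg/ml and 9607 between the doses, and 122, 0 and 122 members were called. With 2 libraries a group, the interval of a member's log2 fold change at 0.1 µg/ml reached a median of 0.19 to each side. The rule kept the members' ratios at this dose close to control, so nothing is read from their changes being smaller than 0.19.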
